A study of Mus musculus with 16 samples.

Results

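The genes described here encode 3 proteins of secreted-signal pathways. Bmp4 is a bone morphogenetic protein (BMP), Smad3 a transcription factor driven by TGF-beta receptors, and Ankrd6 a regulator of Wnt signalling. They were chosen by pathway, and they are 3 of the 661 genes that the deposited tables hold. Smad3 and Ankrd6 are rows of both tables, and Bmp4 was analysed in the ipsilesional one only. Poly(A) RNA had been sequenced from primary motor cortex of 8 C57Bl6 mice that had undergone stroke, from the lesioned side (ipsilesional) and the opposite side (contralesional) of each animal. Recovery had been scored on a horizontal rotating beam: 3 mice recovered spontaneously (animals 6, 23 and 28) and 5 mice did not (animals 17, 19, 20, 21 and 29). All 16 libraries came from mice with a stroke, so no value stands for uninjured cortex. The sources used here do not give age, the kind of stroke or the time after it.

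BMPs and TGF-beta are secreted ligands of one superfamily that bind pairs of receptor kinases on the cell surface. The receptors phosphorylate SMAD proteins, of which SMAD3 carries TGF-beta and activin signals and SMAD1, SMAD5 and SMAD9 carry BMP signals into the nucleus. Wnt ligands bind Frizzled receptors and act through Dishevelled, either by sparing beta-catenin from degradation or through the planar polarity branch, which sets the orientation of cells. ANKRD6, also called Diversin, is an ankyrin repeat protein that in vertebrate cells was described to favour beta-catenin breakdown and to act with Dishevelled in the polarity branch. In the brain, BMP4 is known for holding back the maturation of oligodendrocytes and favouring astrocytes, and TGF-beta signalling through SMAD3 for its part in gliosis and scarring after injury.

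The tables hold a selection of genes, 263 in ipsilesional and 417 in contralesional cortex, as log2 CPM (counts per 1000000 reads). The totals used for scaling were 19.12 M to 26.31 M reads in ipsilesional and 17.97 M to 27.90 M reads in contralesional libraries (M, 1000000). Because so many listed genes differ between the groups, the share of each table passing a criterion is given as background beside each count of members. Adjustment over selected genes can give smaller p-values than adjustment over all expressed ones would. No ipsilesional difference between the groups was smaller in size than 0.126 log2 units (Atp1b1). An unadjusted limma p under 0.05 was found for 196 ipsilesional and 306 contralesional genes. Genes thus appear to have been kept for the difference examined here. Their p-values, also those by permutation, describe that difference and are not independent tests of it. A gene is said to have fallen or risen only if its limma p, Benjamini-Hochberg adjusted over its table, was under 0.05. One ipsilesional library stood apart. Of 18 microglia and macrophage markers 4 were in that table (Itgam, C3, Gpnmb and Lyve1), and their summed level was 148.5 CPM in recovered animal 6, against 9.39 to 22.4 CPM in the other libraries of both groups. The 4 markers did not share a direction between the groups. Lyve1 differed by -0.95 ± 0.22 (log2, SE) between recovered and non-recovered mice. Itgam differed by 0.59 ± 0.41, C3 by 0.34 ± 1.57 and Gpnmb by 1.32 ± 1.16. The part of the library of animal 6 in the results was not tested. Values without that library are given below. For recovered animals 6 and 23, the numbers in the titles and the codes in the descriptions pair the libraries of the 2 hemispheres differently. The labels do not say which pairing is right, and the group is unaffected. Other genes that would define cortical tissue were not analysed here. Of 16 striatal projection neuron markers, the 10 in the contralesional table summed to 297 to 360 CPM in recovered and 367 to 425 CPM in non-recovered libraries. The 3 in the ipsilesional table summed to 182 to 236 CPM in recovered and 171 to 213 CPM in non-recovered libraries. This sum joins opposite directions. Pde10a differed by -0.32 ± 0.13 and Lrrc10b by -0.60 ± 0.23 (log2, SE), whereas Scn4b, the most abundant of the 3, differed by 0.27 ± 0.12. None of these 3 ipsilesional markers had a limma adjusted p under 0.05. All 10 contralesional ones were lower in recovered mice. Of those 10, 1 passed that threshold, Gpr6, at -0.71 ± 0.18 (limma adjusted p = 0.0469). The part of the striatal markers in the differences below was not tested.

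All 3 genes lay lower in recovered cortex, so the bases upstream of their start sites are shown side by side. Each is the 250 bases before an annotated start in RefSeq (GRCm38.p6), on the minus strand, written 5′ to 3′. The motifs searched on both strands were the SMAD box CAGAC, the GC-rich BMP element GGCGCC, and the TCF/LEF motif CTTTGA. Capitals mark a match.
Bmp4 (chr14:46390670-46390919): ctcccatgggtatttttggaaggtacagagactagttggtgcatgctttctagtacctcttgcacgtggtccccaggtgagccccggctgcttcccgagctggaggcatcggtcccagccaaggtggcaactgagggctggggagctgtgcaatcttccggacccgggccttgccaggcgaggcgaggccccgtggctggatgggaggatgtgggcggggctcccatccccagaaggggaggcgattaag
Smad3 (chr9:63757995-63758244): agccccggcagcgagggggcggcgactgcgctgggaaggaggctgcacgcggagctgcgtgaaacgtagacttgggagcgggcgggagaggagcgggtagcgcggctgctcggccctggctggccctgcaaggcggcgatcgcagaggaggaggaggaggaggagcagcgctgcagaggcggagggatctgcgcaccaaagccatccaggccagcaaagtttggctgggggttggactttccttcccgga
Ankrd6, outermost start (chr4:32950827-32951076): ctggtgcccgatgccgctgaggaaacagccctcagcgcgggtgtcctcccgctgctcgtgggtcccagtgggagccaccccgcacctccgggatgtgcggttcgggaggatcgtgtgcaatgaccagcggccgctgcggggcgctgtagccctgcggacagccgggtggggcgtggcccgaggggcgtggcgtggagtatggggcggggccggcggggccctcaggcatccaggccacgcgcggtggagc
Ankrd6, middle start (chr4:32923506-32923755): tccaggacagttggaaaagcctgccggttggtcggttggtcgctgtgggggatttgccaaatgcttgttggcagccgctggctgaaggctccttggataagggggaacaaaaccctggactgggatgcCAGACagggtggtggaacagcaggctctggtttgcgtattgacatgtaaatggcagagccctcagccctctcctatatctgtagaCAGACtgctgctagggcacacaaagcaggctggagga
Ankrd6, innermost start (chr4:32864534-32864783): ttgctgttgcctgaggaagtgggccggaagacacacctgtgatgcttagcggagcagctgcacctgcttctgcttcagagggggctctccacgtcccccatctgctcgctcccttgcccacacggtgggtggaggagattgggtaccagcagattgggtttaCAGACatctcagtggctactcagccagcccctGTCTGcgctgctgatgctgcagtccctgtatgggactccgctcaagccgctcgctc
None of the 3 motifs was found before the start of Bmp4 or Smad3 or before the outermost start of Ankrd6. CAGAC was found 2 times before each of the inner starts of Ankrd6, and the other motifs were not. Of 32851 mouse promoters of this length, 42.2% hold CAGAC, 9.59% hold GGCGCC and 13.8% hold CTTTGA. Which start the reads came from was not analysed here. The bases before the outermost starts are rich in G and C, with 63.2% for Bmp4, 69.2% for Smad3 and 74.4% for Ankrd6.

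The ligand gene Bmp4 (ENSMUSG00000021835.15, GRCm38 chromosome 14, 46383520 to 46390669, minus strand) was the least abundant of the 3. In ipsilesional cortex it stood at 1.70, 1.50 and 1.67 log2 CPM in recovered animals 6, 23 and 28. In non-recovered animals 17, 19, 20, 21 and 29 it stood at 2.30, 1.59, 2.09, 2.24 and 2.27 log2 CPM. All recovered libraries were low, and 1 non-recovered library, that of animal 19, was as low as they were, so the groups overlapped. The means were 1.62 ± 0.11 log2 CPM in recovered (SD, n = 3) and 2.10 ± 0.29 in non-recovered mice (SD, n = 5). The difference was -0.47 ± 0.16 (log2, SE; 95% interval -0.85 to -0.10), a level 28.0% lower, at a limma adjusted p of 0.0601 and an exact permutation p of 0.0893 (2-sided). Without animal 19 it was -0.60, at a limma adjusted p of 0.0136, and without recovered animal 6 it was -0.51 (adjusted p = 0.0871). After quantile normalization, which gives every library the same distribution of values, it was -0.20 (adjusted p = 0.196). Here and below, that step ran over the listed genes only, which appear to have been kept for the group difference. It can by itself alter that difference.

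Bmp4 rested on 56 to 127 reads per library. Counting alone gives an SD of 0.15 log2 units at such a depth. The SD was 1.94 times that among non-recovered and 0.70 times that among recovered libraries, so 3 animals showed no spread beyond counting. The annotation places the end of another gene, Gm15217 on the opposite strand, over Bmp4 exons. Whether reads were counted by strand is not given in the sources used here, so reads of the shared stretch cannot be told apart. Bmp2, the other BMP ligand gene in the ipsilesional table, had a difference of nearly the same size, -0.49 ± 0.17 (adjusted p = 0.0601), and of -0.24 after quantile normalization (adjusted p = 0.381). It stood at 1.64, 1.999 and 1.84 log2 CPM in recovered animals 6, 23 and 28, and between 1.89 and 2.58 log2 CPM in non-recovered ones. Its low non-recovered library was that of animal 21, at 1.89, whereas animal 19 had 2.58.

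**Figure D1:**
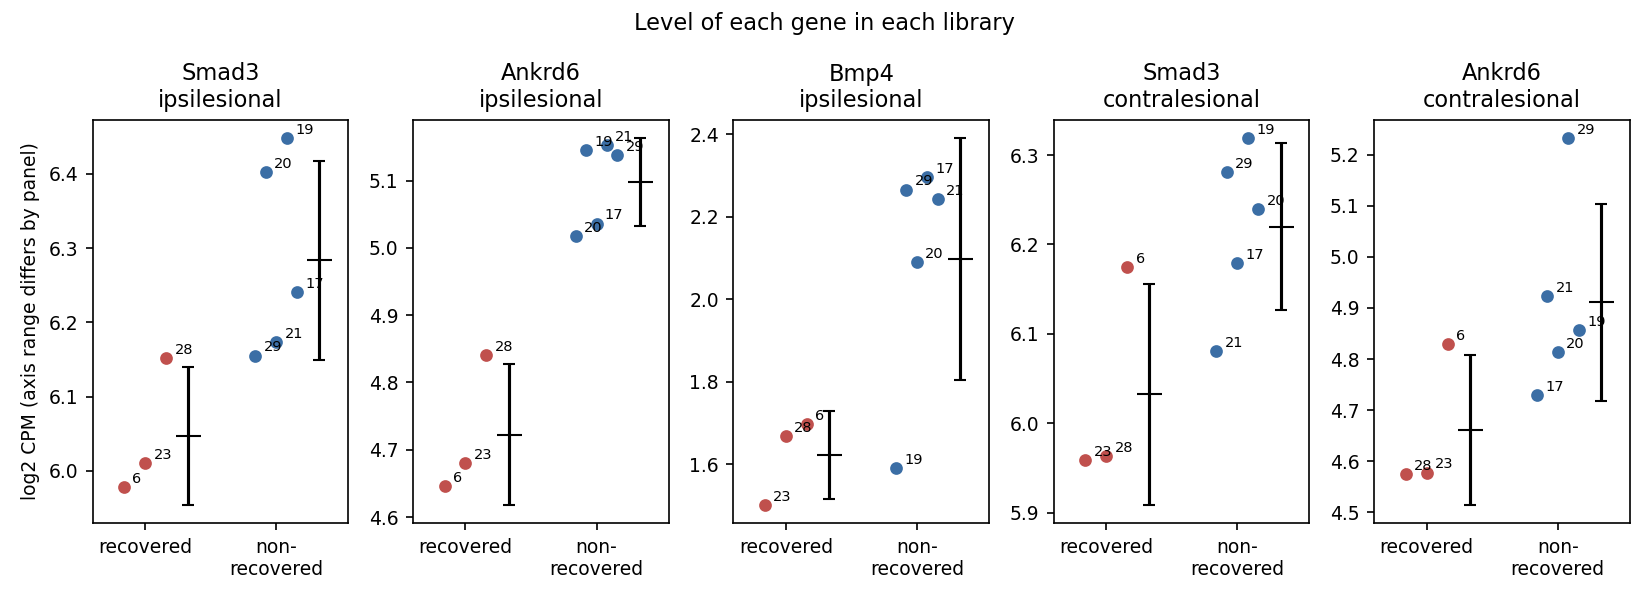
Level of Bmp4, Smad3 and Ankrd6 (log2 CPM, vertical axis with a range of its own in each panel) in each library, numbered by animal; bars give the mean ± SD of 3 recovered and 5 non-recovered libraries. The groups are apart for ipsilesional Ankrd6 and, by 0.0033 log2 units, for ipsilesional Smad3, and they overlap in the other panels.

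Genes of meningeal fibroblasts were low in the same libraries as Bmp4. Of 18 such markers 4 were in the ipsilesional table: Ptgds, a prostaglandin D synthase; the transporters Slc22a6 and Slc6a20a; and Tbx18, a transcription factor. Their summed level was 538, 353 and 644 CPM in recovered animals 6, 23 and 28. In non-recovered mice it was 420 CPM in animal 19 and between 819 and 875 CPM in the other 4. Differences between recovered and non-recovered mice ran from -0.62 ± 0.23 for Tbx18 to -0.53 ± 0.26 for Slc6a20a (log2), and none had a limma adjusted p under 0.05. Libraries low in these genes were those low in Bmp4. Since Bmp4 and these genes were all lower in recovered mice, sharing the recovered libraries restates that difference. Of the low libraries only that of animal 19 goes beyond it. The part of these genes in the Bmp4 difference was not tested. Of 19 oligodendrocyte lineage markers Bmp4 itself was the only one in the table, and of 12 astrocyte and 13 vascular and mural cell markers none was. In bulk tissue, fewer cells of a type and less RNA per cell cannot be told apart.

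**Figure D2:**
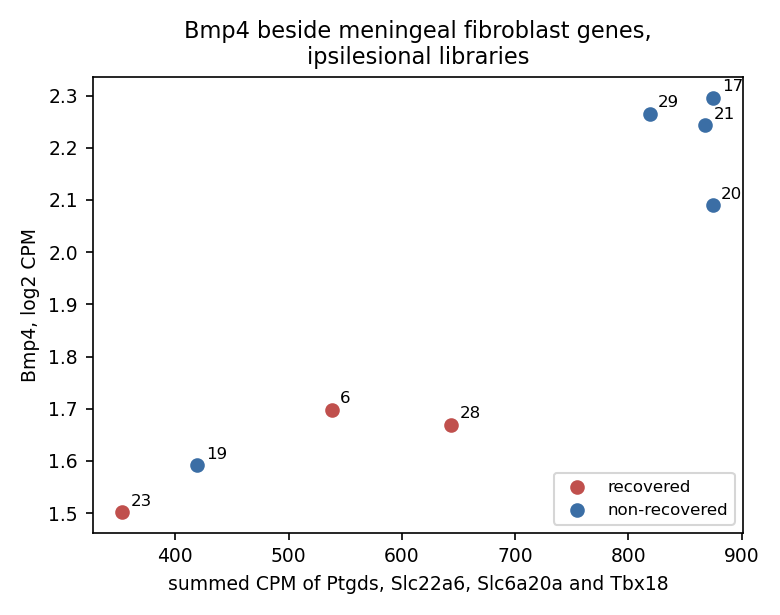
Bmp4 (log2 CPM, vertical axis) against the summed CPM of 4 meningeal fibroblast genes (horizontal axis) in the 8 ipsilesional libraries, numbered by animal. The 3 recovered libraries and non-recovered animal 19 lie at or below 1.70 log2 CPM of Bmp4 and 644 CPM of the sum, and the other 4 non-recovered libraries lie at or above 2.09 log2 CPM and 819 CPM.

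Smad3 (ENSMUSG00000032402.12, chromosome 9, 63646767 to 63757994, minus strand) carries the TGF-beta signal to the nucleus. In ipsilesional cortex it stood at 5.98, 6.01 and 6.15 log2 CPM in recovered animals 6, 23 and 28. In non-recovered animals 17, 19, 20, 21 and 29 it stood at 6.24, 6.45, 6.40, 6.17 and 6.16 log2 CPM. The highest recovered library, that of animal 28, lay just under the lowest non-recovered one, that of animal 29, by 0.0033 log2 units. Counting gives an SD of 0.035 at this depth of 1494 to 1987 reads, so the groups touched. The means were 6.05 ± 0.09 log2 CPM in recovered (SD, n = 3) and 6.28 ± 0.13 in non-recovered mice (SD, n = 5). The difference was -0.24 ± 0.09 (log2, SE; 95% interval -0.44 to -0.03), a level 15.2% lower, with a limma adjusted p of 0.0613 and an exact permutation p of 0.0357 (2-sided; the smallest possible is 0.0179). Without animal 6 the difference was -0.20, at a limma adjusted p of 0.131.

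In contralesional cortex Smad3 stood at 6.17, 5.96 and 5.96 log2 CPM in recovered animals 6, 23 and 28, and at 6.18, 6.32, 6.24, 6.08 and 6.28 log2 CPM in non-recovered animals 17, 19, 20, 21 and 29. Recovered animals 23 and 28 were below every non-recovered library, while animal 6 lay above animal 21. The means were 6.03 ± 0.12 log2 CPM in recovered (SD, n = 3) and 6.22 ± 0.09 in non-recovered mice (SD, n = 5). The difference was -0.19 ± 0.08 (95% interval -0.37 to -0.0029), 12.2% lower, at a limma adjusted p of 0.0662 and an exact permutation p of 0.0536 (2-sided).

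Ankrd6 (ENSMUSG00000040183.13, chromosome 4, 32804035 to 32950841, minus strand) was the member with the clearest separation. In ipsilesional cortex it stood at 4.65, 4.68 and 4.84 log2 CPM in recovered animals 6, 23 and 28. In non-recovered animals 17, 19, 20, 21 and 29 it stood at 5.04, 5.15, 5.02, 5.15 and 5.14 log2 CPM. Every recovered library was below every non-recovered one, with 0.18 log2 units between the groups. Ankrd6 fell to 4.72 ± 0.10 log2 CPM in recovered mice (SD, n = 3), against 5.10 ± 0.07 in non-recovered mice (SD, n = 5). The difference was -0.38 ± 0.07 (95% interval -0.53 to -0.22), a level 22.9% lower, with a limma adjusted p of 0.0416 and an exact permutation p of 0.0179, the smallest that 56 splits allow. Its unadjusted p was rank 3 from the smallest of the 263 genes. The SD among non-recovered libraries was 1.23 times that of counting alone at 592 to 915 reads.

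The adjusted p for ipsilesional Ankrd6 lay close to its threshold, and whether it passed depended on the setting. Over alternatives that kept all libraries, the limma adjusted p ran from 0.0123 to 0.0527 and the difference from -0.42 to -0.36. It was 0.0506 with voom, which weights by read number, and 0.0527 on log2(CPM + 1). With 1 library left out, 2 of 8 fits passed. The adjusted p was 0.0556, 0.0661, 0.0760, 0.0517, 0.113 and 0.0555 without animal 17, 20, 21, 29, 23 or 6. The difference stayed between -0.43 and -0.34 with any 1 library left out.

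In contralesional cortex Ankrd6 stood at 4.83, 4.58 and 4.58 log2 CPM in recovered animals 6, 23 and 28, and at 4.73, 4.86, 4.81, 4.92 and 5.23 log2 CPM in non-recovered animals 17, 19, 20, 21 and 29. The groups overlapped, since animal 6 of the recovered group lay above non-recovered animals 17 and 20. Animal 29 was the highest, by 0.31 log2 units over the next. The means were 4.66 ± 0.15 log2 CPM in recovered (SD, n = 3) and 4.91 ± 0.19 in non-recovered mice (SD, n = 5). The difference was -0.25 ± 0.12 (95% interval -0.52 to 0.02), 15.9% lower, at a limma adjusted p of 0.0760 and an exact permutation p of 0.107 (2-sided). Without animal 6 it was -0.33 (limma adjusted p = 0.0628), without animal 29 it was -0.17 (adjusted p = 0.111), and after quantile normalization -0.13 (adjusted p = 0.310).

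Over the listed contralesional genes, the slope of library values on exonic length differed between the groups. These genes appear to have been kept for the group difference, so this split is not independent of it. Removing the trend can by itself alter that difference. Per doubling of length, the deviation of a library from the gene means changed by -0.0155 in recovered animal 6, -0.111 in animal 23 and -0.0447 in animal 28, whereas the slopes of non-recovered animals ran between 0.0237 and 0.0436. With this trend removed from each library, the contralesional differences were -0.17 for Smad3 and -0.24 for Ankrd6, nearly as large as with it. The limma adjusted p was then 0.107 and 0.129.

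Of the 3 ipsilesional members, 1 passed the adjusted threshold, where 1.14% of listed genes did. All 3 had an unadjusted limma p under 0.05 and were lower, where 37.3% of the table did so, and 2 had groups that did not overlap, where 21.3% were lower in that way. Of the 2 contralesional members, none passed the adjusted threshold, where 7.91% of listed genes did. Smad3 had an unadjusted limma p of 0.0472 and Ankrd6 of 0.0633, where 47.7% of the table was lower at that level. Neither had groups apart, where 25.4% of the table lay lower without overlap. By size, Bmp4 was the 29th, Ankrd6 the 43rd and Smad3 the 82nd lowest of 263 ipsilesional differences. Ankrd6 was the 147th and Smad3 the 211th lowest of 417 contralesional ones. The median absolute difference was 0.26 log2 units in each table. In size the Smad3 differences were thus below the middle of both tables, as was contralesional Ankrd6, while ipsilesional Ankrd6 and Bmp4 were above it.

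**Figure D3:**
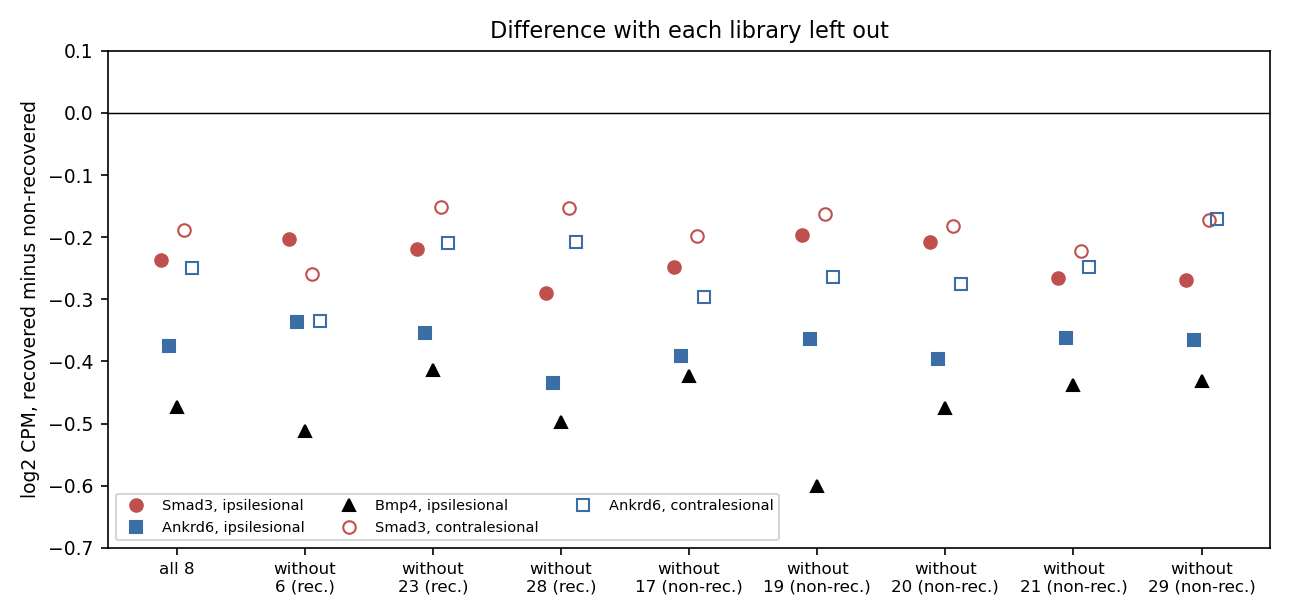
Difference in log2 CPM between recovered and non-recovered mice (vertical axis) for each gene and hemisphere, over all 8 libraries and with each library left out in turn (horizontal axis). All values stay below 0; ipsilesional Bmp4 moves most, to -0.60 without animal 19, and contralesional Ankrd6 moves to -0.33 without animal 6 and to -0.17 without animal 29.

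The tables were normalized apart, so levels were not set against each other across hemispheres. The recovery differences were compared through an interaction term in limma over the 19 genes that both tables hold. The ipsilesional difference less the contralesional one was -0.05 ± 0.13 for Smad3 (95% interval -0.33 to 0.23) and -0.13 ± 0.15 for Ankrd6 (95% interval -0.45 to 0.20). The limma adjusted p was 0.931 for each, where 5.26% of the 19 genes passed. Both intervals hold differences between hemispheres as large as the recovery differences themselves. Relative to the non-recovered mean of its hemisphere, Smad3 was lower in all 3 recovered animals on both sides. It lay at -0.31, -0.27 and -0.13 log2 units in ipsilesional and at -0.05, -0.26 and -0.26 in contralesional cortex of animals 6, 23 and 28. Ankrd6 lay at -0.45, -0.42 and -0.26 log2 units in ipsilesional and at -0.08, -0.33 and -0.34 in contralesional cortex of the same animals. Number 6 of the titles thus had the lowest ipsilesional and the least lowered contralesional value of both genes among recovered animals. It is 1 of the 2 numbers whose labels conflict between hemispheres. The differences between hemispheres depended on single animal numbers, as the titles give them. Leaving out number 6 may remove libraries of 2 different mice, since its labels conflict. That of Smad3 was 0.056 without animal 6, -0.14 without animal 28, -0.10 without animal 29 and -0.02 without animal 20. That of Ankrd6 was -0.0023 without animal 6, -0.23 without animal 28 and -0.20 without animal 29.

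**Figure D4:**
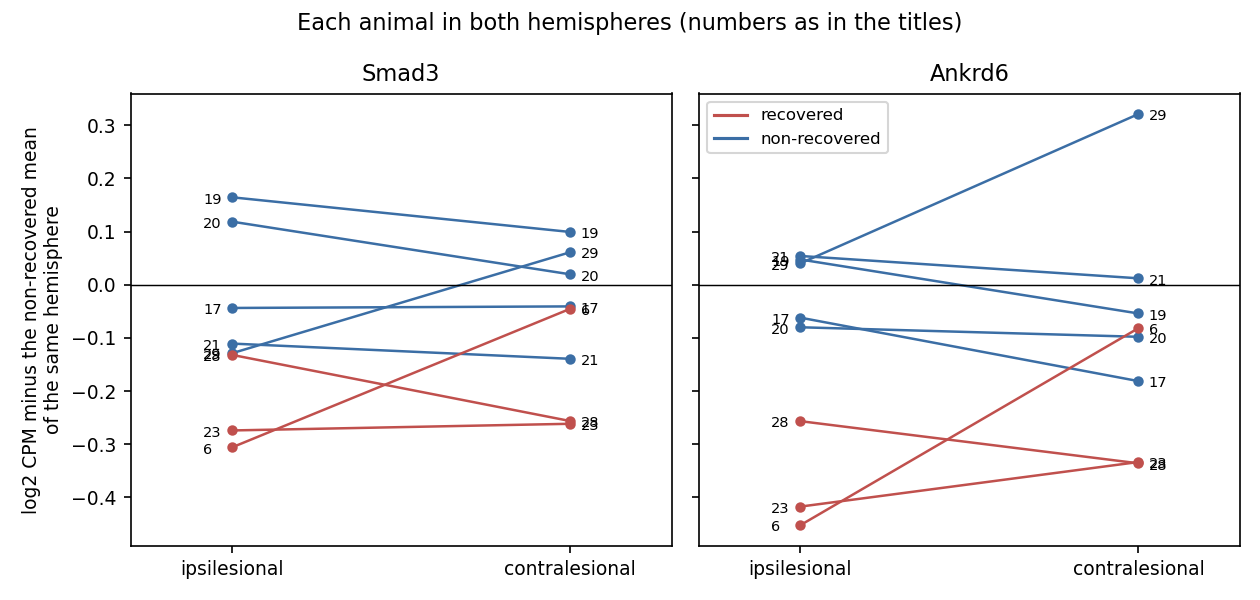
Smad3 and Ankrd6 in each animal, as log2 CPM minus the non-recovered mean of the same hemisphere (vertical axis), with a line joining the libraries that the titles give to one animal. Recovered animals lie below 0 on both sides for both genes, and the contralesional value of animal 6 lies among the non-recovered ones, at -0.05 for Smad3 and -0.08 for Ankrd6.

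Of 217 genes in 11 lists of BMP, TGF-beta and Wnt genes, 10 were in the ipsilesional table. Of these, 8 were lower and 2 higher in recovered mice, with a median difference of -0.31 log2 units. Over all 263 genes 50.2% were lower, and the median was -0.13. That median was the lower difference nearest 0 (Plppr2), and no listed difference lay between it and 0.126 (Atp1b1). The value of -0.31 can therefore not be read against it. At an unadjusted limma p under 0.05, 6 were lower and 1 was higher, where 37.3% of the table lay in each direction. Ankrd6 alone passed the adjusted threshold. The 3 members were chosen with earlier results known. Without them 5 genes were lower and 2 higher, and at that unadjusted p 3 were lower and 1 higher. Besides the members and Bmp2, the lower genes were receptors and an antagonist. The Frizzled receptor gene Fzd1 had a difference of -0.34 ± 0.10 (adjusted p = 0.0574). It was past the threshold without animal 28, at -0.46 (adjusted p = 0.0472), and after quantile normalization, at -0.39 (adjusted p = 0.0482). Fzd2 had -0.28 ± 0.12 (adjusted p = 0.0663), which was -0.13 without animal 23 (adjusted p = 0.196). Adgra2, which with Reck serves Wnt7 signalling in brain endothelium, had -0.30 ± 0.14 (adjusted p = 0.0734), and Nbl1, a secreted BMP antagonist, -0.31 ± 0.14 (adjusted p = 0.0728), or -0.21 without animal 23. With the members, the count of 7 genes at the unadjusted p was 3 without animal 23 and 4 without animal 20.

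Fzd1 stood at 3.35, 3.20 and 3.62 log2 CPM in recovered animals 6, 23 and 28, and at 3.62 to 3.90 log2 CPM in non-recovered ones, so its groups met at 3.62. Nbl1 was lowest in animal 19 among non-recovered libraries, at 5.47 log2 CPM, as Bmp4 was. Both higher genes restrain TGF-beta signalling. Pmepa1, a TGF-beta target whose product holds back SMAD2 and SMAD3 activation, stood at 6.23 to 6.31 log2 CPM in recovered and 6.07 to 6.20 in non-recovered libraries. Its difference was 0.15 ± 0.06 (adjusted p = 0.0613). Skil, which encodes the SMAD corepressor SnoN, had 6.42 to 6.50 log2 CPM in recovered and 6.21 to 6.46 in non-recovered libraries, a difference of 0.15 ± 0.07 (adjusted p = 0.0709). The lists of BMP and TGF-beta receptors, Wnt ligands, Wnt antagonists, planar polarity genes and Wnt targets had no gene in the ipsilesional table.

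In contralesional cortex 7 listed pathway genes were analysed, and all 7 were lower in recovered mice, where 64.7% of the table was. Their median difference was -0.22 log2 units, and the median over all 417 genes was -0.19. The latter joins 270 lower and 147 higher genes that appear to have been kept for this difference. The list median can therefore not be read against it. At an unadjusted limma p under 0.05, 4 of the 7 were lower, where 47.7% of the table was. Without the 2 members all 5 genes were lower, 3 of them at that p. Of the 7 genes, 1 passed the adjusted threshold. That gene was Bmp5, a BMP ligand, which fell to 0.89 ± 0.20 log2 CPM in recovered mice (SD, n = 3), against 1.43 ± 0.18 in non-recovered mice (SD, n = 5). It stood at 0.99, 1.03 and 0.66 log2 CPM in recovered animals 6, 23 and 28, and from 1.16 to 1.66 log2 CPM in non-recovered ones, with no overlap. The difference was -0.53 ± 0.12, at a limma adjusted p of 0.0469. It rested on 27 to 86 reads, and its adjusted p was 0.0520 with voom, 0.0506 on log2(CPM + 1), 0.0502 among genes with a mean log2 CPM of at least 1, 0.0507 with a trend in the prior variance, and 0.0737, 0.0554, 0.0740, 0.0640 and 0.0665 without animal 17, 19, 20, 23 or 28. After quantile normalization its difference was -0.31 (adjusted p = 0.120). The count of 4 genes was 2 without animal 20 or animal 23, and 1 after quantile normalization or removal of the length trend.

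The other contralesional pathway genes did not pass. Fzd4, a Frizzled receptor of brain endothelium, had a difference of -0.30 ± 0.12 (adjusted p = 0.0603), which was -0.14 without animal 23, whose 3.49 log2 CPM was the lowest value. Intu, a planar polarity effector of ciliated cells, had -0.21 ± 0.08 (adjusted p = 0.0576) with no overlap between groups, and -0.13 after quantile normalization. Celsr3, a cadherin of the planar polarity family that guides axon tracts, had -0.22 ± 0.11 (adjusted p = 0.0868). Its difference was -0.14 without animal 23, -0.34 without animal 28, -0.06 after quantile normalization and -0.10 without the length trend. Fn1, which encodes fibronectin, a matrix target of TGF-beta and also a meningeal fibroblast marker, had -0.22 ± 0.11 (adjusted p = 0.0893). It passed the threshold without animal 6, at -0.35 (adjusted p = 0.0495), and was -0.10 without animal 28, -0.12 after quantile normalization and -0.11 without the length trend. The 3 meningeal markers of 18 that the contralesional table holds (Islr, Mgp and Fn1) summed to 66.2 to 90.9 CPM in recovered and 88.3 to 105 CPM in non-recovered libraries. Of these 3, Mgp passed the threshold, at -0.40 ± 0.09 (limma adjusted p = 0.0469), and Islr did not, at -0.33 ± 0.16 (adjusted p = 0.0809). The part of these markers in the pathway differences was not tested.

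**Figure D5:**
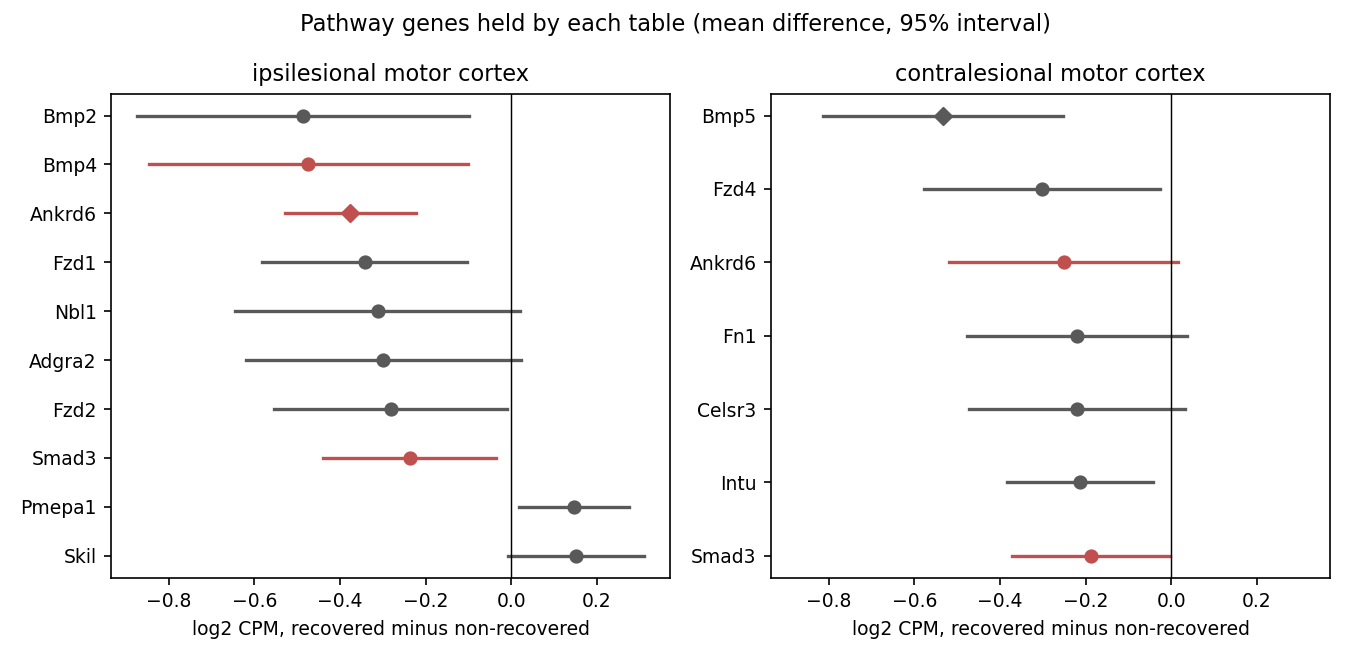
Difference in log2 CPM between recovered and non-recovered mice (horizontal axis, with limma 95% intervals) for each pathway gene held by the ipsilesional (left, 10 genes) and contralesional table (right, 7 genes); Bmp4, Smad3 and Ankrd6 are in red, and diamonds mark an adjusted p under 0.05. The diamonds are ipsilesional Ankrd6 and contralesional Bmp5, and only ipsilesional Pmepa1 and Skil lie above 0.

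Divided by the bases covered by any annotated exon, the ipsilesional order of levels was Smad3, Ankrd6, Bmp4 in both groups. Smad3 had 11.9 ± 0.78 CPM per exonic kilobase in recovered and 14.1 ± 1.32 in non-recovered mice. Ankrd6 had 4.83 ± 0.36 in recovered and 6.26 ± 0.28 in non-recovered mice. Bmp4 had 1.37 ± 0.10 in recovered and 1.93 ± 0.35 in non-recovered mice (SD, n = 3 and 5 for each gene). The steps between neighbours in this order were larger than any of these SDs. In contralesional cortex Smad3 had 11.8 ± 1.04 in recovered and 13.5 ± 0.86 in non-recovered mice, and Ankrd6 had 4.63 ± 0.48 in recovered and 5.54 ± 0.78 in non-recovered mice.

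How the members varied among animals of one group was described by Pearson's r over the 8 libraries of a table, on log2 CPM less the group mean; the libraries share their depth and scaling with every gene, and no test was made. With the deviations of both groups pooled, Bmp4 and Smad3 had r = -0.70 (Spearman rho = -0.79) in ipsilesional cortex. The recovered libraries did not show this. In animals 6, 23 and 28 Bmp4 stood at 1.70, 1.50 and 1.67 and Smad3 at 5.98, 6.01 and 6.15 log2 CPM. Animal 19 had the highest Smad3 and the lowest Bmp4 of the non-recovered libraries. Smad3 and Ankrd6 had r = 0.16 (rho = -0.05) in ipsilesional and r = 0.48 (rho = 0.33) in contralesional cortex. The genes most like Bmp4 were Myoc (r = 0.96), Ptpn14 (r = 0.93) and the meningeal marker Slc22a6 (r = 0.92), and the least like was Plppr2 (r = -0.85). For Ankrd6 they were Hpcal4 (r = 0.88), Neurl1a (r = 0.87) and Gna11 (r = 0.83) in ipsilesional and Ide (r = 0.91), Cemip (r = 0.86) and Stc1 (r = 0.78) in contralesional cortex, with Inpp5j (r = -0.91) and Bmf (r = -0.94) least like. For Smad3 they were Epha8 (r = 0.83), Bach2 (r = 0.79) and Asic2 (r = 0.76) in ipsilesional and Ptprj (r = 0.93), Pou3f2 (r = 0.93) and Hivep2 (r = 0.92) in contralesional cortex, with Faf1 (r = -0.83) and Tbxas1 (r = -0.96) least like.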

How the data were processed

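Per the labels' protocols, poly(A) libraries of primary motor cortex were strand-specific (TruSeq). STAR 2.5.1b, Trimmomatic 0.38, edgeR, bcl2fastq and the build mm10 appear in the submitters' processing notes, with no role attached. How genes were selected, and which counter and annotation were used, is not given in the sources used here. The authors deposited log2 CPM values per library, in a table per hemisphere that was normalized separately. Undoing a prior count that averaged 2 and scaled with the library total gave whole reads, within 0.01, for 100% of values. The totals may include a normalization factor, which the values do not show.

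Samples were grouped by their titles. Each replicate is its own animal, per the labels. Within a table, the groups were compared with limma 3.58.1 (R 4.3.3), using Benjamini-Hochberg adjustment over all its genes, and by exact permutation over 56 splits. The script was tested on simulated data. Alternatives were other scales, voom, quantile normalization, removal of a trend on exonic length (GENCODE M21, GRCm38, the assembly of mm10; 263 and 415 genes matched), a filter, a prior trend and leaving out each library. No column was left unmapped. The genes, lists and tests were chosen with earlier results of these data known. Named genes were the members, every pathway-list gene in a table, the 3 most and 1 least like each member, and genes of marker lists that moved with a member. Libraries of the 2 hemispheres pair by animal: over 19 shared genes, deviations from group means correlated by 0.12 to 0.87 for the same number, 0.53 on average. Other pairs had -0.08, a value that subtracting group means by itself lowers. Paired by description code, the average was 0.47. Ipsilesional libraries 6 and 23 had 0.33 and 0.52 by number, and -0.10 and 0.48 by code. Coordinates are 1-based.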

Additional observations from a re-analysis of the deposited data

How the results depend on the processing

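Over the 11 planned results, no alternative turned a recovery difference of Smad3, Ankrd6 or Bmp4 positive. The ipsilesional Ankrd6 difference was -0.38 with voom (adjusted p = 0.0506) and -0.36 on log2(CPM + 1) (adjusted p = 0.0527). It was between -0.43 and -0.34 with 1 library left out (adjusted p = 0.0368 to 0.113). Its lowest limma adjusted p over alternatives that kept all libraries was 0.0123. Bmp4 was -0.47 with a trend in the prior variance (adjusted p = 0.0488, as for Bmp2, Fzd1 and Pmepa1) and between -0.60 and -0.41 with 1 library left out. Ipsilesional Smad3 was -0.24 under the same trend (adjusted p = 0.0488) and by exact permutation (p = 0.0357). The Smad3 difference between hemispheres ran from -0.14 to 0.056 with 1 animal number of the titles left out, and 0.056 was without number 6. With the animal number as a replicate block it was -0.05 and that of Ankrd6 -0.13 (adjusted p = 0.911 each, limma), and with the description code as block they were the same (adjusted p = 0.910), so pairing changed no call. With 1 animal number left out the Ankrd6 difference between hemispheres ran from -0.23 to -0.0023.

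Counts of genes at an adjusted p under 0.05 moved most. From 3 ipsilesional genes (0 higher, 3 lower, and 196 without adjustment), the count was 1 on log2(CPM + 1), 39 after quantile normalization (15 higher, 24 lower), 189 with a trend in the prior variance (93 higher, 96 lower), 31 without the length trend (12 higher, 19 lower) and 0 by limma with voom (222 without adjustment), and 0 to 18 with 1 library left out. From 33 contralesional genes (8 higher, 25 lower, and 306 without adjustment), it was 3 on log2(CPM + 1), 3 among genes with a mean log2 CPM of at least 1, 77 after quantile normalization (70 higher, 7 lower), 72 without the length trend (20 higher, 52 lower), 0 with a prior trend (360 without adjustment), 0 by voom (356 without adjustment), and 0 to 74 with 1 library left out. Pathway genes past the unadjusted p numbered 3 to 10 ipsilesionally and 2 to 6 contralesionally with 1 library left out, against 7 and 4, and 1 contralesionally after quantile normalization or without the length trend. Quantile normalization moved the median ipsilesional difference of all genes from -0.13 to -0.01. With 132 genes lower and 131 higher, the median of -0.13 was the lower difference nearest 0. Its move does not measure a shift of the whole table. The cause of these moves was not tested. Depth limits Bmp4 and Bmp5, with at most 127 and 86 reads per library.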
